A study of Mus musculus with 36 samples.

Results

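Gene expression was compared between AT-3 cells that received BMS204352 in medium with raised potassium chloride and AT-3 cells that received the potassium chloride alone. AT-3 is a mouse breast cancer line derived from a mammary tumour of an MMTV-PyMT animal, in which the polyoma middle T oncogene is driven by a mammary promoter. The 3 libraries labelled KCl+BMS204352 came from cells given 40 mM KCl and 10 µM BMS204352 for 24 h, and the 3 libraries labelled KCl from cells given 40 mM KCl for 24 h. Those 6 libraries were taken from 36, which hold 6 treatments of AT-3 and of a second mouse breast cancer line, E0771. The comparison took in all 14772 genes with enough counts among 32285 mouse gene IDs, and the other 12 AT-3 libraries entered only the estimate of the spread between libraries. Those 12 are 3 each of cells given 10 µM BMS204352, 10 µM NS11021, 40 mM KCl with 10 µM NS11021, and DMSO, for 24 h; NS11021 is another opener of BK channels. Both groups carry the raised potassium, so they differ by the compound and possibly by its solvent. The labels do not say whether the KCl libraries received the compound's solvent, they list no group matched for chloride or osmolarity, and nothing says that the 3 libraries of a group came from separate cultures, so p-values measure the spread between these libraries, which may be technical.

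BMS204352 opens large-conductance calcium-activated (BK) potassium channels, whose pore subunit Kcnma1 encodes, and voltage-gated KCNQ channels. Potassium leaving through open channels makes the inside of a cell more negative, whereas potassium added outside shrinks the gradient that drives it out and so depolarises the membrane. With the gradient reduced, an opener has less outward driving force to act on. The series concerns transcription by MRTFA (Mrtfa), an actin-regulated coactivator, and its partner SRF (Srf), whose targets encode actin-binding and contractile proteins, and its relation to cytoplasmic potassium and calcium.

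Library totals were 42.4, 44.6 and 47.2 M counts with BMS204352 in KCl and 40.4, 42.8 and 45.7 M counts in KCl alone. On the first principal component of the 18 AT-3 libraries the KCl+BMS204352 libraries lay at 0.62, 3.96 and 23.6 and the KCl libraries at −12.0, −11.3 and −12.1, so that the third KCl+BMS204352 library stood apart from its group. The third BMS204352 library without KCl also stood apart, at 47.3 against 7.95 and 11.8 for the other two, and it enters the shared spread. Epithelial Epcam, at 127 to 174 counts per M of library total (CPM; values of marker genes in this paragraph are not TMM-scaled), Cdh1 and Krt14 were abundant in all 6 libraries, as was mesenchymal Vim, whereas Krt8 was near 0 at 0.18 to 0.466 CPM. Leukocyte Ptprc and Cd3e had 0 counts in all 6, and fibroblast Thy1 and Lum had at most 0.224 CPM, although fibroblast-associated Pdgfra and Pdgfrb were present.

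BMS204352 in KCl changed 183 of the 14772 genes, 1.24%, at an adjusted p below 0.05 in edgeR's quasi-likelihood test. Of these, 108 genes (0.731%) were higher and 75 genes (0.508%) were lower. The changes were small: the median size was 0.48 on the log2 scale, and 15 rises and 11 falls reached 2-fold. All 183 had no overlap between the 3 and 3 libraries, as had 3309 of all tested genes, 22.4%. In bulk RNA, a change in the share of cells that express a gene and a change in RNA per cell cannot be told apart.

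The count depended on single libraries and on which libraries set the spread. Leaving out the third KCl+BMS204352 library gave 21 genes, all among the 183, and 0.139% of those tested. With the same library left out and only the other 5 compared libraries in the fit, 167 genes passed, of which 87 were among the 183. In what follows, an omission leaves the other 17 AT-3 libraries in the fit. Leaving out the second KCl+BMS204352 library gave 41. The count was 38 without the first KCl library, 51 without the second and 20 without the third. Of the libraries that enter only the spread, leaving out the first BMS204352 library gave 288 genes and the third 948. Without the third libraries of both KCl+BMS204352 and BMS204352, 273 genes passed (1.82%), of which 139 were among the 183. Without the third KCl+BMS204352 library the log2 fold changes of the 183 had a median ratio of 0.891 to those over all 6 libraries, and that library was the most extreme in 79 of the 108 rises and 43 of the 75 falls. Calls of 15 genes held in each of the 6 fits that omitted 1 compared library: Ier2, Nab2, Lif, Slc7a5, Pck2, Slc29a1 and mt-Co1 among the rises, and Serpinb9, Cyp26b1, Dtx4, Ogn, Col11a1, Dclk1, Tns3 and Svil among the falls.

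The 12 largest rises by log2 fold change, among genes averaging at least 2 on the log2 CPM scale, were Egr4, Egr1, Egr2, Atf5, Kcnn4, Aig1, Adamts14, Wfdc2, Fam110c, Pycr1, Lcn2 and Fzd5, and the 12 largest falls were Ugt8a, Serpinb9, Colgalt2, Col3a1, Cnn1, Col8a2, Tgm2, Xkr4, Rasgrp1, Lmcd1, Cyp26b1 and Prex2. The rises included 3 members of the EGR family of immediate early transcription factors and enzymes or factors of the amino acid stress response, and the falls included collagen genes, the actin-binding calponin gene Cnn1 and signalling regulators.

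**Figure D1:**
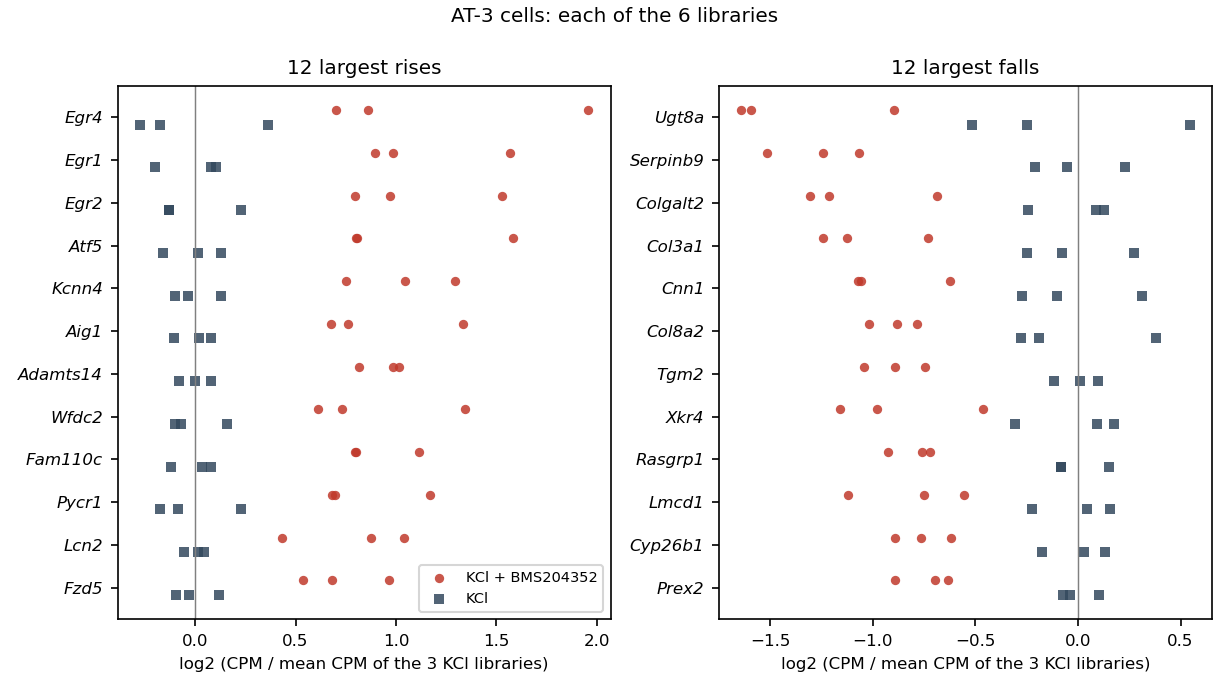
Each of the 6 AT-3 libraries for the 12 largest rises (left) and falls (right): log2 of a library's CPM over the mean CPM of the 3 KCl libraries on the x axis, KCl + BMS204352 as red circles above KCl as dark squares in each row. These genes were chosen for having no overlap between the groups. The third KCl+BMS204352 library gives the rightmost point of most rises, as for Egr4 at 10.7 CPM.

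Immediate early transcription factors were the group with the highest median. These genes are switched on within minutes by calcium entry, growth factor signalling and the kinase ERK. Of 27 tested members, 4 rose and 0 fell, where 0.731% of all tested genes rose and 0.508% fell. The median log2 fold change was 0.63, against 0.00 over all tested genes. Egr1, a zinc finger factor, had 108, 115 and 172 CPM in the KCl+BMS204352 libraries, against 62.4, 61.3 and 50.6 CPM in the KCl libraries (log2 fold change 1.18 ± 0.18, adjusted p = 0.0112). Every KCl+BMS204352 library lay above every KCl library, and the third lay farthest. Egr2 had 8.48, 7.52 and 12.5 CPM with BMS204352 in KCl and 5.06, 3.96 and 3.96 CPM in KCl alone (log2 fold change 1.14 ± 0.23, adjusted p = 0.0222), and Egr4 had 4.5, 5.01 and 10.7 CPM with BMS204352 in KCl and 2.28, 3.56 and 2.45 CPM in KCl alone (log2 fold change 1.29 ± 0.31, adjusted p = 0.0487). In Egr4 the third KCl+BMS204352 library held more than the other two together. Ier2, a nuclear protein of the same early class, showed the smallest spread, with 48, 50.5 and 56.7 CPM in the KCl+BMS204352 libraries, against 34.3, 34.9 and 31.1 CPM in the KCl libraries (log2 fold change 0.63 ± 0.09, adjusted p = 0.0013).

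Other members of this group did not pass the test. Fosb, a partner of JUN proteins in the AP-1 factor, had the largest log2 fold change at 2.82 ± 0.69 (adjusted p = 0.0727), from 8.77, 7.82 and 37.9 CPM with BMS204352 in KCl and 3.03, 2.58 and 2.14 CPM in KCl alone. For Fos the log2 fold change was 1.95 ± 0.58 (adjusted p = 0.132) and for Nr4a1, an orphan nuclear receptor, 1.63 ± 0.43 (adjusted p = 0.0964). In all 3 the groups did not overlap, and most of the spread came from the third KCl+BMS204352 library, as with 237 CPM of Nr4a1 against 102 CPM in each of the other two. The log2 fold change was positive for 25 of the 27 members. Without the third KCl+BMS204352 library the median was 0.37, and without the third libraries of both BMS204352 groups 9 members passed, all higher. Myc, Fosl2 and Ier5 had log2 fold changes of −0.06 ± 0.10, −0.03 ± 0.12 and 0.00 ± 0.12. The calls of Egr1, Egr2 and Egr4 were lost in at least 1 omission: Egr1 without the third KCl library, with an adjusted p of 0.0719, and Egr2 and Egr4 in 4 and 5 of the 6, with adjusted p-values of up to 0.176 and 0.288. Nab2, which encodes a corepressor of EGR proteins and was named after its values were seen, had 47.2, 45.2 and 55 CPM with BMS204352 in KCl and 35.9, 35 and 32.1 CPM in KCl alone (log2 fold change 0.52 ± 0.08, adjusted p = 0.00214); 42.2% of its exon bases are shared with another gene, and the counting strand is not given in the sources used here.

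Feedback regulators of ERK signalling and ligands of the EGF receptor family also gave rises and no falls. Of 20 tested feedback genes, 3 rose, with a list median of 0.29, where 0.731% of all tested genes rose. Spry4, a Sprouty inhibitor of receptor tyrosine kinase signalling, had 17.2, 16.4 and 23.2 CPM in the KCl+BMS204352 libraries, against 12, 12.9 and 11.3 CPM in the KCl libraries (log2 fold change 0.65 ± 0.15, adjusted p = 0.0363). The ETS transcription factors Etv5 and Etv4, which ERK signalling induces, had 81.5, 89.2 and 89.8 CPM with BMS204352 in KCl and 63.5, 63.1 and 57.3 CPM in KCl alone (log2 fold change 0.50 ± 0.09, adjusted p = 0.00676), and 83.3, 91.6 and 92.3 CPM with BMS204352 in KCl and 68.4, 67.1 and 73.9 CPM in KCl alone (log2 fold change 0.35 ± 0.08, adjusted p = 0.0313). None of the 3 overlapped between the groups. Dusp6, a phosphatase of ERK, did not pass, with 69.7, 70.8 and 80.4 CPM with BMS204352 in KCl and 45, 50.8 and 38 CPM in KCl alone (log2 fold change 0.72 ± 0.17, adjusted p = 0.0616). Among 10 ligand genes 2 rose, and the median was 0.57. Tgfa, which encodes TGF-alpha, had 24.8, 28 and 33.2 CPM in the KCl+BMS204352 libraries, against 19.9, 20.1 and 16.4 CPM in the KCl libraries (log2 fold change 0.61 ± 0.13, adjusted p = 0.0263), and Nrg2, a neuregulin, had 13.9, 13.5 and 17.2 CPM with BMS204352 in KCl and 8.74, 9.6 and 9.64 CPM in KCl alone (log2 fold change 0.67 ± 0.14, adjusted p = 0.0214). Areg, which encodes amphiregulin, reached 10.1 CPM against at most 3.08 CPM in KCl alone but did not pass (log2 fold change 1.72 ± 0.57, adjusted p = 0.162). None of these 5 calls held without the third KCl+BMS204352 library, with adjusted p-values of 0.0565 for Etv5 and 0.268 for Spry4 at the ends of the range; Etv5 held in 4 of the 6 omissions and the other calls in 1 or 2.

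Genes of amino acid synthesis and of the integrated stress response rose in a second group. In that response, phosphorylation of the initiation factor eIF2 lowers general translation and favours translation of the factor ATF4, which binds amino acid response elements in genes of amino acid synthesis, transport and tRNA charging. In proline, serine and asparagine synthesis, 5 of 17 tested genes rose and 0 fell, with a median of 0.42. Among stress response factors 2 of 20 rose (median 0.51) and among amino acid carriers 1 of 11 (median 0.17). Among cytosolic aminoacyl-tRNA synthetases 1 of 20 rose (median 0.11), and no member of these lists fell. Over all tested genes 0.731% rose, and a single call is not read as a result about its list.

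Promoters of 4 of these 9 risen genes hold the core TGATGNAA of the amino acid response element (CARE), read on both strands, in the 250 bases before to 50 bases after a RefSeq start site. They are shown because they are the 4 of the 9 that hold these letters. The sequences are the 250 bases before the start site from RefSeq on GRCm38, written 5′ to 3′ along the gene, with the matching bases in capitals. They lie at chr6:7693210-7693459 on the minus strand for Asns, at chr2:119350992-119351241 on the plus strand for Chac1, at chr14:55540016-55540265 on the plus strand for Pck2 and at chr11:120643749-120643998 on the minus strand for Pycr1.
Asns: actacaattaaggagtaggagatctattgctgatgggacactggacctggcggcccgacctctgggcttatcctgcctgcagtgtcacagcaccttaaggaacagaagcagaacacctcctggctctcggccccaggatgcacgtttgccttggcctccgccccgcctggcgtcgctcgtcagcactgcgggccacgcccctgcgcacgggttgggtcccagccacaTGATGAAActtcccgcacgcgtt
Chac1: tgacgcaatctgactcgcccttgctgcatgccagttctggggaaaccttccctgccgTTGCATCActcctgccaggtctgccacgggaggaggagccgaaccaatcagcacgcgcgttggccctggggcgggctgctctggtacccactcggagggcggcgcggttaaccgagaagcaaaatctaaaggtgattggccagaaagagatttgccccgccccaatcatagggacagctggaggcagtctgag
Pck2: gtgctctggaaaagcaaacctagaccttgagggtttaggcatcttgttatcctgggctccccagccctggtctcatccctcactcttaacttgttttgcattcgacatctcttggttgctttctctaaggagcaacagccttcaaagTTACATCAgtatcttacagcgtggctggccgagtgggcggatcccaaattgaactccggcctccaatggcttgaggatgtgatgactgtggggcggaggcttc
Pycr1: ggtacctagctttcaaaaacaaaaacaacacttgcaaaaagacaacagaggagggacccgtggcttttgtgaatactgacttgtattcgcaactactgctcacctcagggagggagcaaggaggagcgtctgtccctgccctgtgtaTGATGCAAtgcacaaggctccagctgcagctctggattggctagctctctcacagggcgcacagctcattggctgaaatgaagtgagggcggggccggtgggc
Matches begin 23 bases before the start site in Asns, 193 in Chac1, 103 in Pck2 and 103 in Pycr1. Among the 81 risen genes with a promoter in the table, 6 hold the core, 7.41%: these 4, Fbln5 and Ptgr1. It stands in 0 of 60 promoters of fallen genes and in 311 of 11143 promoters of all tested genes, 2.79%. The promoter windows of Aldh18a1, Atf5, Phgdh and Sars hold no such letters, and Slc7a5 has no entry. A match describes letters, not binding.

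Pck2, the mitochondrial phosphoenolpyruvate carboxykinase, held its call in every omission, with 109, 104 and 132 CPM in the KCl+BMS204352 libraries, against 78.5, 75.6 and 71.7 CPM in the KCl libraries (log2 fold change 0.61 ± 0.10, adjusted p = 0.00466). Asparagine synthetase, encoded by Asns, had 204, 187 and 268 CPM in the KCl+BMS204352 libraries, against 144, 136 and 127 CPM in the KCl libraries (log2 fold change 0.70 ± 0.14, adjusted p = 0.0286). Pycr1 and Aldh18a1 catalyse the last and the first step of proline synthesis from glutamate. Pycr1 had 12.9, 12.8 and 17.9 CPM with BMS204352 in KCl and 9.33, 7.05 and 7.52 CPM in KCl alone (log2 fold change 0.87 ± 0.20, adjusted p = 0.0434), and Aldh18a1 had 142, 131 and 171 CPM with BMS204352 in KCl and 113, 111 and 109 CPM in KCl alone (log2 fold change 0.42 ± 0.08, adjusted p = 0.0174). The rises were of unequal size, from 0.29 on the log2 scale for Phgdh, the first enzyme of serine synthesis, to 0.87 for Pycr1. Phgdh itself had 426, 415 and 475 CPM with BMS204352 in KCl and 372, 349 and 356 CPM in KCl alone (adjusted p = 0.0294).

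Atf5, a stress-induced bZIP transcription factor, had 177, 177 and 303 CPM in the KCl+BMS204352 libraries, against 111, 102 and 90.7 CPM in the KCl libraries (log2 fold change 1.11 ± 0.23, adjusted p = 0.0404). Its first 2 KCl+BMS204352 libraries were alike and the third was far higher. Chac1, which encodes an enzyme that degrades glutathione, had 24.7, 21.4 and 28.6 CPM with BMS204352 in KCl and 16.5, 15.4 and 13 CPM in KCl alone (log2 fold change 0.73 ± 0.17, adjusted p = 0.0395). Slc7a5, the light chain of the large neutral amino acid transporter, had 251, 221 and 311 CPM in the KCl+BMS204352 libraries, against 179.9, 165 and 165 CPM in the KCl libraries (log2 fold change 0.62 ± 0.10, adjusted p = 0.00543) and passed in every omission. Its heavy chain partner Slc3a2 did not pass, with 299, 313 and 358 CPM with BMS204352 in KCl and 212, 213 and 198 CPM in KCl alone (log2 fold change 0.64 ± 0.15, adjusted p = 0.0529). Sars, the seryl-tRNA synthetase, had 365, 371 and 431 CPM with BMS204352 in KCl and 320.4, 299.6 and 284 CPM in KCl alone (log2 fold change 0.37 ± 0.09, adjusted p = 0.0473). The transcript of Atf4 itself had a log2 fold change of 0.28 ± 0.11 (adjusted p = 0.2), and the pseudokinase gene Trib3, whose KCl+BMS204352 libraries all lay above the KCl libraries, 1.20 ± 0.30 (adjusted p = 0.0837). Apart from Pck2 and Slc7a5, the calls of this group held in at most 2 of the 6 omissions; without the third KCl+BMS204352 library the log2 fold changes were 0.80 for Atf5, 0.52 for Asns and 0.68 for Pycr1, with adjusted p-values of 0.197, 0.153 and 0.252.

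**Figure D2:**
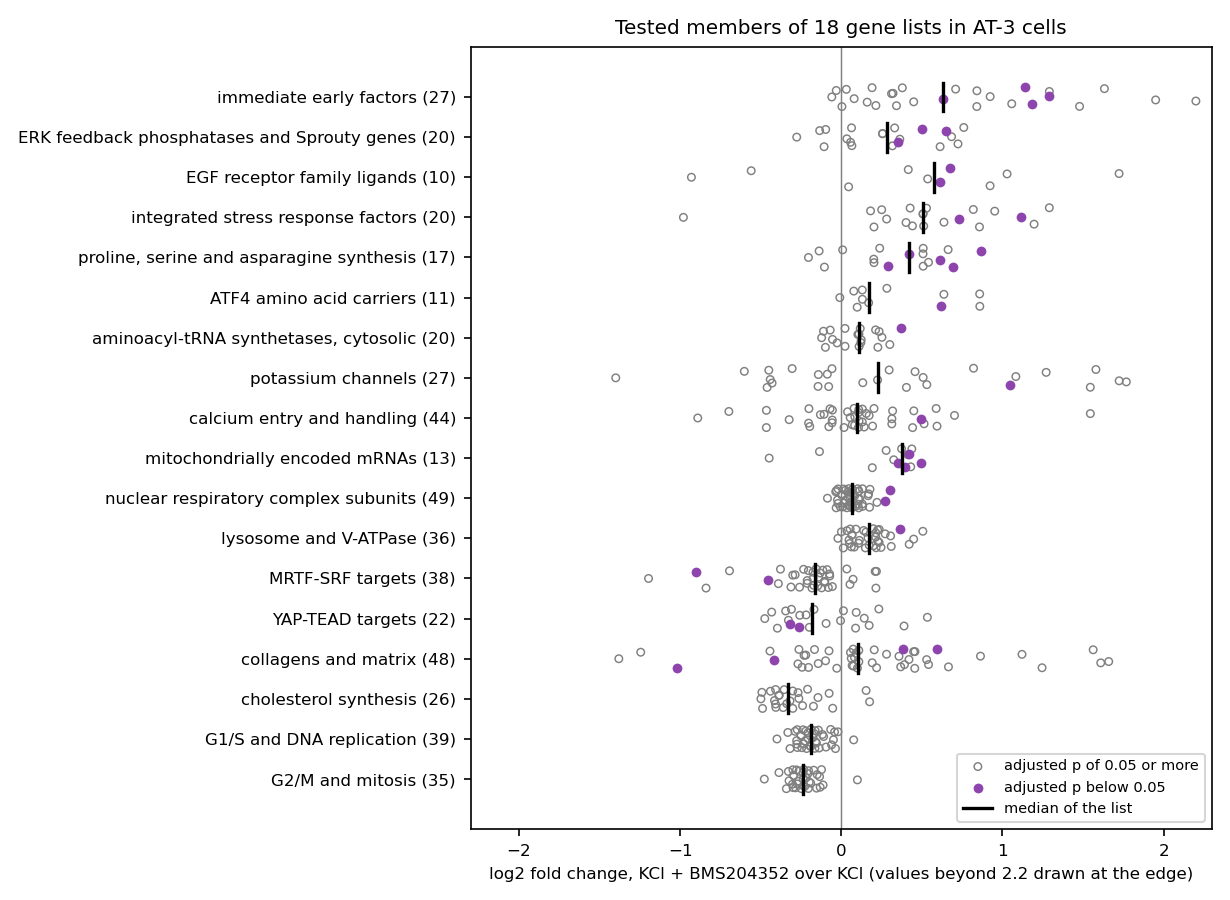
Log2 fold change, KCl + BMS204352 over KCl, of every tested member of 18 of the 43 gene lists, with the number tested in brackets, filled where the adjusted p is below 0.05, and a black bar at the list's median. The medians of immediate early factors (0.63), stress response factors (0.51) and mitochondrial mRNAs (0.37) lie to the right, and those of cholesterol synthesis (−0.33) and G2/M genes (−0.24) to the left with 0 filled points; 1 value lies beyond the axis.

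Among potassium channels 1 of 27 tested members rose and 0 fell, out of 54 in the table, with a median of 0.23. As 0.731% of all tested genes rose, 1 call says little about the list. The riser was Kcnn4, which encodes the intermediate-conductance calcium-activated channel KCa3.1. Its levels were 129.8, 159 and 189 CPM in the KCl+BMS204352 libraries, against 75.2, 84.1 and 71.8 CPM in the KCl libraries, a mean of 159 ± 29.6 CPM with BMS204352 in KCl and 77 ± 6.34 CPM in KCl alone (SD, n = 3 each), and a fold of 2.07 (log2 fold change 1.05 ± 0.22, adjusted p = 0.0404). Each KCl+BMS204352 library exceeded the highest KCl library, and the 3 were spread more widely than the KCl libraries. Without the third KCl+BMS204352 library the log2 fold change was 0.90 (adjusted p = 0.213), and without the third libraries of both BMS204352 groups 0.91 (adjusted p = 0.0119). The call held in 1 of the 6 omissions, with log2 fold changes between 0.90 and 1.16.

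Genes of the channels that BMS204352 opens did not pass. Kcnma1, the BK pore subunit, had few counts, with 0.281, 0.176 and 0.298 CPM in the KCl+BMS204352 libraries, against 0.248, 0.0468 and 0.131 CPM in the KCl libraries, so that no difference was detectable at this depth (log2 fold change 0.82 ± 0.79, adjusted p = 0.653). Kcnq5, a KCNQ channel gene, had 5.06, 4.61 and 8.01 CPM with BMS204352 in KCl and 5.01, 5.1 and 5.03 CPM in KCl alone (log2 fold change 0.23 ± 0.20, adjusted p = 0.614), and its groups overlapped; without the third KCl+BMS204352 library its log2 fold change was −0.07. Outside the list, and chosen after its values were seen, the voltage-gated potassium channel gene Kcnh7 fell, with 1.41, 1.01 and 0.723 CPM with BMS204352 in KCl and 2.28, 1.94 and 3.08 CPM in KCl alone (log2 fold change −1.22 ± 0.28, adjusted p = 0.035; 0.214 without the third KCl+BMS204352 library). Of 44 tested genes of calcium entry and handling, 1 rose and 0 fell, where 0.731% of all tested genes rose. The riser was Trpv6, an epithelial calcium channel gene. Trpv6 had 22.9, 25 and 26.4 CPM in the KCl+BMS204352 libraries, against 20.4, 17.3 and 14.9 CPM in the KCl libraries (log2 fold change 0.50 ± 0.10, adjusted p = 0.0239). Without the third KCl+BMS204352 library its adjusted p was 0.184. Atp2a3, a calcium pump of the endoplasmic reticulum, had 3.75, 5.43 and 11.6 CPM with BMS204352 in KCl and 2.78, 1.73 and 2.6 CPM in KCl alone but did not pass (log2 fold change 1.55 ± 0.44, adjusted p = 0.109). None of 24 tested genes of the sodium pump and the cation-chloride cotransporters passed in either direction in edgeR (median 0.12), and none of 23 calcium-NFAT and CREB targets did (median 0.16). At an unadjusted p below 0.05 the counts were 4 higher and 2 lower in the first list and 9 higher and 1 lower in the second, and DESeq2 called 1 member of each higher. The share of all tested genes at an unadjusted p below 0.05 is not given here, so counts at that level cannot be judged against it.

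MRTF-SRF targets, the genes of the series' title, gave 2 falls and 0 rises among 38 tested members. Of all tested genes 0.508% fell and 0.731% rose. The list median was −0.16, and 32 of 38 log2 fold changes were negative, as were 49.1% of those of all tested genes. At an unadjusted p below 0.05, 14 members were lower and 0 higher, a count that again stands without the share of all tested genes. DESeq2 called 6 members lower and 0 higher, among 216 lower genes in all. With the replicate number as a block 11 members were lower and 0 higher, among 293 lower genes in all. Tpm1, a tropomyosin that stabilises actin filaments, had 1923, 1777 and 1798 CPM in the KCl+BMS204352 libraries, against 2614, 2243 and 2679 CPM in the KCl libraries (log2 fold change −0.46 ± 0.08, adjusted p = 0.011). Cnn1, which encodes the smooth muscle actin-binding protein calponin, had 11.7, 8.57 and 8.67 CPM in the KCl+BMS204352 libraries, against 16.8, 14.9 and 22.4 CPM in the KCl libraries (log2 fold change −0.90 ± 0.18, adjusted p = 0.0244). In both, every KCl+BMS204352 library lay below every KCl library. Neither call held without the third KCl+BMS204352 library (adjusted p = 0.0678 for Tpm1 and 0.184 for Cnn1), where the log2 fold changes were −0.45 and −0.84, and each held in 2 of the 6 omissions.

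Other contractile genes and the factors themselves did not pass. Myl9, a regulatory myosin light chain gene, had 20.6, 18.3 and 17.3 CPM in the KCl+BMS204352 libraries, against 29.8, 24.8 and 36.2 CPM in the KCl libraries (log2 fold change −0.69 ± 0.18, adjusted p = 0.0701), with no overlap between the groups. Acta1, skeletal actin, had 8.91, 6.53 and 9.67 CPM with BMS204352 in KCl and 16.7, 13.2 and 27.6 CPM in KCl alone (log2 fold change −1.20 ± 0.34, adjusted p = 0.118). Acta2, smooth muscle actin, had a log2 fold change of −0.20 ± 0.12 (adjusted p = 0.407) from overlapping groups. Srf had 95.1, 81.6 and 113 CPM with BMS204352 in KCl and 107, 83.9 and 120.1 CPM in KCl alone (log2 fold change −0.10 ± 0.15, adjusted p = 0.791), Mrtfa had a log2 fold change of −0.21 ± 0.10 (adjusted p = 0.303) and Mrtfb of −0.13 ± 0.17 (adjusted p = 0.763). Ccn1 and Ccn2, matricellular genes that SRF and YAP both drive, had log2 fold changes of −0.00 ± 0.27 and −0.40 ± 0.27 (adjusted p = 0.996 and 0.502).

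YAP-TEAD genes gave 2 falls and 0 rises among 22 tested members (median −0.18), where 0.508% of all tested genes fell and 0.731% rose. Wwtr1, which encodes the coactivator TAZ, had 160.5, 153 and 176 CPM in the KCl+BMS204352 libraries, against 191, 196 and 201 CPM in the KCl libraries (log2 fold change −0.26 ± 0.06, adjusted p = 0.0418), and Wwc1, which encodes the Hippo pathway scaffold KIBRA, had 242, 248 and 253 CPM with BMS204352 in KCl and 302, 278 and 344 CPM in KCl alone (log2 fold change −0.32 ± 0.07, adjusted p = 0.027). Each of these calls held in 1 of the 6 omissions. Among 48 collagens and matrix genes 2 rose and 2 fell. Col18a1, a basement membrane collagen, had 256, 283 and 334 CPM in the KCl+BMS204352 libraries, against 195, 198 and 184 CPM in the KCl libraries (log2 fold change 0.60 ± 0.12, adjusted p = 0.03), and Serpine2, a protease inhibitor, had 479, 614 and 546 CPM with BMS204352 in KCl and 406, 447 and 406 CPM in KCl alone (log2 fold change 0.38 ± 0.09, adjusted p = 0.0377). Against these, Col3a1, a fibrillar collagen, had 9.89, 7.52 and 6.93 CPM in the KCl+BMS204352 libraries, against 13.8, 15.5 and 19.8 CPM in the KCl libraries (log2 fold change −1.02 ± 0.22, adjusted p = 0.0339), and Tnc, which encodes tenascin C, had 453, 446 and 444 CPM with BMS204352 in KCl and 582, 660.2 and 554 CPM in KCl alone (log2 fold change −0.42 ± 0.09, adjusted p = 0.0304). The matrix genes thus moved in both directions, and all 4 calls were lost without the third KCl+BMS204352 library, with adjusted p-values between 0.189 and 0.209. Col11a1, another fibrillar collagen and outside the list, fell in every omission, with 945, 858 and 929 CPM in the KCl+BMS204352 libraries, against 1358, 1473 and 1459.7 CPM in the KCl libraries (log2 fold change −0.65 ± 0.09, adjusted p = 0.00163).

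Most transcripts of the mitochondrial genome were higher. They encode core subunits of the respiratory chain and of ATP synthase, and 4 of 13 rose with 0 falling, at a median log2 fold change of 0.37. mt-Co1, a subunit of cytochrome c oxidase, had 2434, 2375 and 2986 CPM in the KCl+BMS204352 libraries, against 1942, 1713 and 1873 CPM in the KCl libraries (log2 fold change 0.50 ± 0.08, adjusted p = 0.00275), and its call held in every omission. The complex I subunits mt-Nd5, mt-Nd4 and mt-Nd6 had log2 fold changes of 0.40 ± 0.07, 0.42 ± 0.09 and 0.35 ± 0.08 (adjusted p = 0.00676, 0.0222 and 0.0339). For 11 of the 13, all 3 KCl+BMS204352 libraries lay above all 3 KCl libraries. The groups overlapped for mt-Nd3 and mt-Atp8, and 2 of the 13 log2 fold changes were negative. Among all tested genes 22.4% had no overlap in either direction, and 0.731% rose. When the third KCl+BMS204352 library was left out, mt-Co1 passed and the other 3 had adjusted p-values of 0.0698, 0.189 and 0.213.

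Together these 13 transcripts took 0.696%, 0.687% and 0.792% of the counts with BMS204352 in KCl and 0.580%, 0.491% and 0.572% in KCl alone. The mean shares were 0.725% ± 0.0582 and 0.548% ± 0.0491 (SD, n = 3 each), a difference of 0.177 percentage points. A two-sided exact permutation test gave p = 0.1, the smallest it can give with 3 against 3. The share was tested because earlier results of these data showed it moving with the treatment. This p and the range that follows are therefore not independent evidence. The other 15 AT-3 libraries, KCl included, ranged between 0.490% and 0.608%, below every KCl+BMS204352 library. Leaving out 1 library at a time gave differences between 0.144 and 0.196 points. Nuclear genes of the respiratory complexes moved less: 2 of 49 rose and 0 fell, with a median of 0.07, where 0.731% of all tested genes rose. Cox4i1, a cytochrome c oxidase subunit, had 289, 315 and 302 CPM with BMS204352 in KCl and 255, 243 and 253 CPM in KCl alone (log2 fold change 0.27 ± 0.05, adjusted p = 0.0214), and Uqcrq, a complex III subunit, had 160.02, 164 and 186 CPM with BMS204352 in KCl and 143, 131 and 139.5 CPM in KCl alone (log2 fold change 0.30 ± 0.06, adjusted p = 0.0222); without the third KCl+BMS204352 library their adjusted p-values were 0.112 and 0.197. The mitochondrial share can also follow RNA quality, which the files do not measure; its part in the result was not tested.

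**Figure D3:**
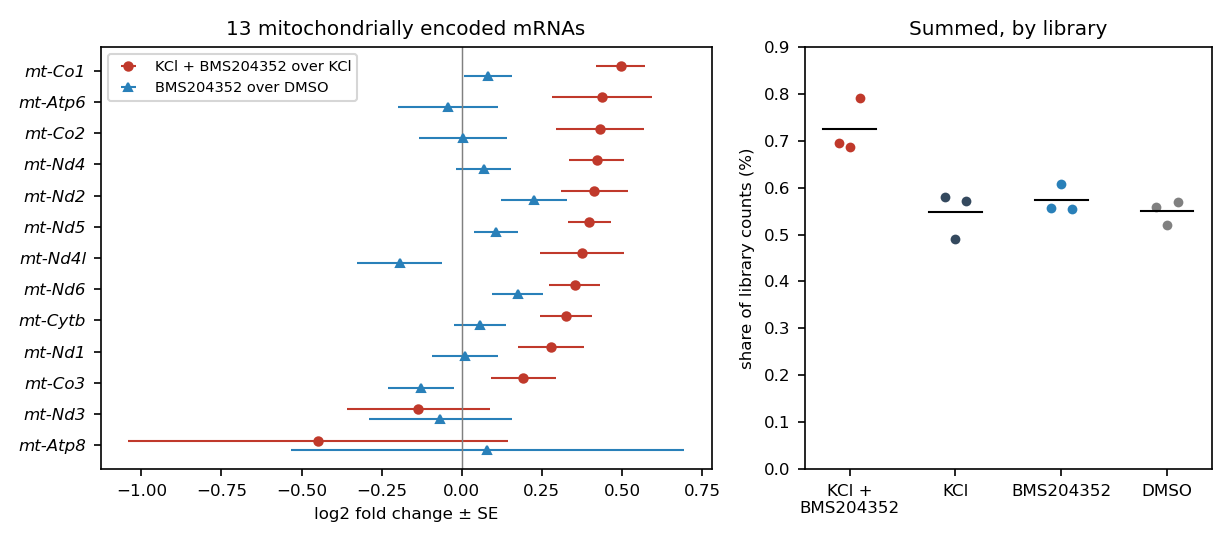
Left, log2 fold change ± SE of each of the 13 mitochondrially encoded mRNAs for KCl + BMS204352 over KCl (red circles) and for BMS204352 over DMSO (blue triangles). Right, their summed share of each library's counts in 4 AT-3 groups, with bars at the means; the KCl+BMS204352 libraries reach 0.792% and none of the other plotted libraries is above 0.608%.

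The remaining groups gave few changes. In the metal list of 10 tested genes, the ferritin genes Fth1 and Ftl1, which store iron, rose, and Tfrc, the transferrin receptor that takes iron up, fell. Fth1 had 1123, 1282 and 1239 CPM in the KCl+BMS204352 libraries, against 930.3, 906 and 891 CPM in the KCl libraries (log2 fold change 0.42 ± 0.09, adjusted p = 0.0222), Ftl1 a log2 fold change of 0.22 ± 0.05 (adjusted p = 0.0418), and Tfrc 306, 266 and 234 CPM with BMS204352 in KCl and 358, 371 and 349 CPM in KCl alone (log2 fold change −0.42 ± 0.08, adjusted p = 0.0151). None of the 3 held without the third KCl+BMS204352 library, with adjusted p-values of 0.135, 0.184 and 0.112. In the lysosome list 1 of 36 rose, Mcoln1, which encodes the lysosomal cation channel TRPML1 (log2 fold change 0.36 ± 0.07, adjusted p = 0.0222). Without that library its adjusted p was 0.135. In this list 35 of 36 log2 fold changes were positive, at a median of 0.17, against 50.9% positive over all tested genes. Of all tested genes 0.731% rose and 0.508% fell.

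In 8 further lists 1 or 2 members passed, where 1.24% of all tested genes did. Lif, a cytokine gene of the interleukin 6 family, rose in every omission, with 112, 107 and 113 CPM in the KCl+BMS204352 libraries, against 80.5, 72.7 and 72.1 CPM in the KCl libraries (log2 fold change 0.56 ± 0.08, adjusted p = 0.00163). Lcn2, which encodes the iron-siderophore binding protein lipocalin 2 and stands on the NF-kB list with Lif, had 43.8, 59.5 and 66.9 CPM with BMS204352 in KCl and 31.2, 32.7 and 33.4 CPM in KCl alone (log2 fold change 0.81 ± 0.16, adjusted p = 0.0279). Aqp5, a water channel gene on the list of osmolyte and NFAT5 genes, had 51, 58.5 and 53 CPM in the KCl+BMS204352 libraries, against 33, 35 and 29.5 CPM in the KCl libraries (log2 fold change 0.74 ± 0.14, adjusted p = 0.0214). That list had a median of 0.02, with 12 log2 fold changes positive and 7 negative. Its member Slc6a6 was lower without overlap but did not pass, with 874, 842 and 700 CPM with BMS204352 in KCl and 1070, 1115 and 1023 CPM in KCl alone (log2 fold change −0.41 ± 0.10, adjusted p = 0.0515). Xbp1, a transcription factor of the unfolded protein response, had 159.6, 188 and 168 CPM with BMS204352 in KCl and 134, 133 and 120.5 CPM in KCl alone (log2 fold change 0.41 ± 0.08, adjusted p = 0.0147). Further rises, as log2 fold changes, were those of Id4, an inhibitor of bHLH factors (0.30 ± 0.07), Hes1, a Notch target (0.50 ± 0.08), and Blvrb, biliverdin reductase B (0.37 ± 0.08). Falls were Dtx4, a Notch pathway ubiquitin ligase gene whose call held in every omission (log2 fold change −0.50 ± 0.07, adjusted p = 0.00163), the interferon-induced Ifit2 (log2 fold change −0.46 ± 0.10, adjusted p = 0.0286) and the small heat shock protein gene Cryab (log2 fold change −0.33 ± 0.08, adjusted p = 0.0346). Without the third KCl+BMS204352 library the adjusted p-values were 0.189 for Lcn2, 0.112 for Aqp5, 0.0565 for Xbp1, 0.0678 for Hes1, 0.209 for Id4, 0.198 for Blvrb, 0.208 for Ifit2 and 0.209 for Cryab.

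No member of the cell cycle and lipid synthesis lists passed in edgeR. With the replicate number as a block, 13 cholesterol synthesis genes were lower and 1 was higher. Of 39 G1/S and replication genes 38 had negative log2 fold changes, at a median of −0.19, and of 35 G2/M genes 34, at a median of −0.24. Cholesterol synthesis had 24 of 26 negative with a median of −0.33, and fatty acid synthesis 16 of 19 with a median of −0.19. At an unadjusted p below 0.05, 11 G1/S, 24 G2/M, 7 cholesterol and 3 fatty acid synthesis genes were lower and 1 cholesterol gene was higher. Counts at an unadjusted p in this paragraph stand without the share of all tested genes and cannot be judged against it. DESeq2 called 1 G1/S, 2 G2/M and 1 cholesterol gene lower and no fatty acid synthesis gene. Without the third libraries of both BMS204352 groups 5 of the G2/M genes passed, all lower, and 1 each of the G1/S and cholesterol genes. Lists of epithelial, mesenchymal, luminal, leukocyte and endothelial markers, p53 targets, integrins, glycolysis, fatty acid oxidation, xenobiotic response, TXNIP family and ribosome biogenesis had 0 members past the threshold in edgeR. DESeq2 called at most 2 members of any of them in 1 direction, and at an unadjusted p below 0.05 the most were 12 ribosome biogenesis genes, all lower. Of 8 tested fibroblast-associated genes 1 fell, the matrix gene Col3a1 described above.

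Several of the largest changes fell outside these lists. Wfdc2, which encodes a secreted whey acidic protein-type protease inhibitor, had 52.6, 57 and 87.3 CPM in the KCl+BMS204352 libraries, against 32.8, 32 and 38.4 CPM in the KCl libraries (log2 fold change 0.93 ± 0.18, adjusted p = 0.0247). Aig1, which encodes a hydrolase of fatty acid esters, had 39, 41.4 and 61.5 CPM with BMS204352 in KCl and 25.8, 24.7 and 22.7 CPM in KCl alone (log2 fold change 0.96 ± 0.21, adjusted p = 0.0418). Adamts14, a procollagen-processing protease gene, had 10.4, 12 and 11.7 CPM with BMS204352 in KCl and 6.25, 5.92 and 5.59 CPM in KCl alone (log2 fold change 0.94 ± 0.21, adjusted p = 0.0339). In Wfdc2 and Aig1 the third KCl+BMS204352 library was the highest. Fam110c had 13.1, 13.1 and 16.3 CPM with BMS204352 in KCl and 7.72, 7.98 and 6.95 CPM in KCl alone (log2 fold change 0.91 ± 0.17, adjusted p = 0.0151), and the Wnt receptor gene Fzd5 had 44, 48.6 and 59.3 CPM with BMS204352 in KCl and 28.3, 29.6 and 33 CPM in KCl alone (log2 fold change 0.74 ± 0.14, adjusted p = 0.0214). Among these 5, no call held without the third KCl+BMS204352 library, with adjusted p-values between 0.0657 and 0.209.

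Serpinb9, which encodes an inhibitor of granzyme B, had 10.1, 8.9 and 7.38 CPM in the KCl+BMS204352 libraries, against 20.3, 18.2 and 24.7 CPM in the KCl libraries (log2 fold change −1.26 ± 0.17, adjusted p = 0.00127). Cyp26b1, an enzyme that degrades retinoic acid, had 36.1, 43.7 and 39.4 CPM in the KCl+BMS204352 libraries, against 59.4, 73.4 and 68.4 CPM in the KCl libraries (log2 fold change −0.75 ± 0.10, adjusted p = 0.00127). Both held in every omission, and in both the lowest KCl library was well above the highest KCl+BMS204352 library. Tgm2, tissue transglutaminase, had 109, 97.9 and 88.4 CPM with BMS204352 in KCl and 184, 168 and 194 CPM in KCl alone (log2 fold change −0.89 ± 0.18, adjusted p = 0.0354); 21.8% of its exon bases are shared with another gene. Ugt8a, a galactosyltransferase of glycolipid synthesis, had the largest of the 12 log2 fold changes, with 3.7, 2.29 and 2.21 CPM in the KCl+BMS204352 libraries, against 5.81, 4.82 and 10.1 CPM in the KCl libraries (log2 fold change −1.34 ± 0.28, adjusted p = 0.0252).

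Signalling and matrix genes made up much of the rest. Rasgrp1, a diacylglycerol-regulated activator of RAS, had 8.53, 8.31 and 7.4 CPM with BMS204352 in KCl and 13.3, 13.3 and 15.6 CPM in KCl alone (log2 fold change −0.80 ± 0.18, adjusted p = 0.0339), and Prex2, an activator of RAC, had 7.1, 6.81 and 5.95 CPM with BMS204352 in KCl and 10.5, 11.8 and 10.8 CPM in KCl alone (log2 fold change −0.74 ± 0.17, adjusted p = 0.0363). Colgalt2, a collagen galactosyltransferase, had 4.17, 2.9 and 2.72 CPM with BMS204352 in KCl and 7.15, 5.67 and 7.34 CPM in KCl alone (log2 fold change −1.04 ± 0.25, adjusted p = 0.0404), and Col8a2, a short-chain collagen, had 15.8, 14.4 and 16.9 CPM with BMS204352 in KCl and 25.6, 24 and 37.9 CPM in KCl alone (log2 fold change −0.89 ± 0.21, adjusted p = 0.049). Lmcd1 had a log2 fold change of −0.79 ± 0.17 (adjusted p = 0.0377) and Xkr4 of −0.84 ± 0.20 (adjusted p = 0.0418). The calls of Tgm2, Ugt8a, Rasgrp1, Prex2, Colgalt2, Col8a2, Lmcd1 and Xkr4 were lost without the third KCl+BMS204352 library, with adjusted p-values between 0.191 and 0.249.

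The effect of BMS204352 in KCl was set against that of BMS204352 over DMSO, given without added KCl to the same line. The 2 effects share no library, but the same fit gave both the same spread for each gene. Calls in both are therefore not independent. Without KCl, 779 of 14772 genes passed (5.27%), 484 higher (3.28%) and 295 lower (2%). Of the 183 genes that changed in KCl, 180 had the same sign without it, 98.4%, against 70.1% of all tested genes. Those called in both, always in the same direction, were 123: 67.2% of the 183 and 15.8% of the 779. In the test of the difference between the effects, 0 genes passed in edgeR and 0 in DESeq2, and 533 genes (3.61%) had an unadjusted p below 0.05 in edgeR and 635 in DESeq2. A p that misses the threshold does not show that the effects are alike.

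Gene by gene, Egr1 had a log2 fold change of 1.18 ± 0.18 in KCl and 1.01 ± 0.18 without it, a difference of 0.17 ± 0.26. Kcnn4 had 1.05 ± 0.22 in KCl and 1.34 ± 0.22 without, a difference of −0.29 ± 0.31. The immediate early list had a median of 0.63 with 4 of 27 members called in KCl, and a median of 1.01 with 17 called without it. For the mitochondrial mRNAs the order was the other way, with a median of 0.37 and 4 of 13 called in KCl and a median of 0.06 and 0 called without it. mt-Co1 had 0.50 ± 0.08 in KCl and 0.08 ± 0.08 without it, a difference of 0.41 ± 0.11, at an unadjusted p of 0.000931 and an adjusted p of 0.998. Wwtr1 had −0.26 ± 0.06 in KCl and −0.03 ± 0.06 without it (difference −0.23 ± 0.09, unadjusted p = 0.0167). The MRTF-SRF list had a median of −0.16 with 2 of 38 members called lower in KCl, and a median of −0.02 with 3 called lower without it.

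**Figure D4:**
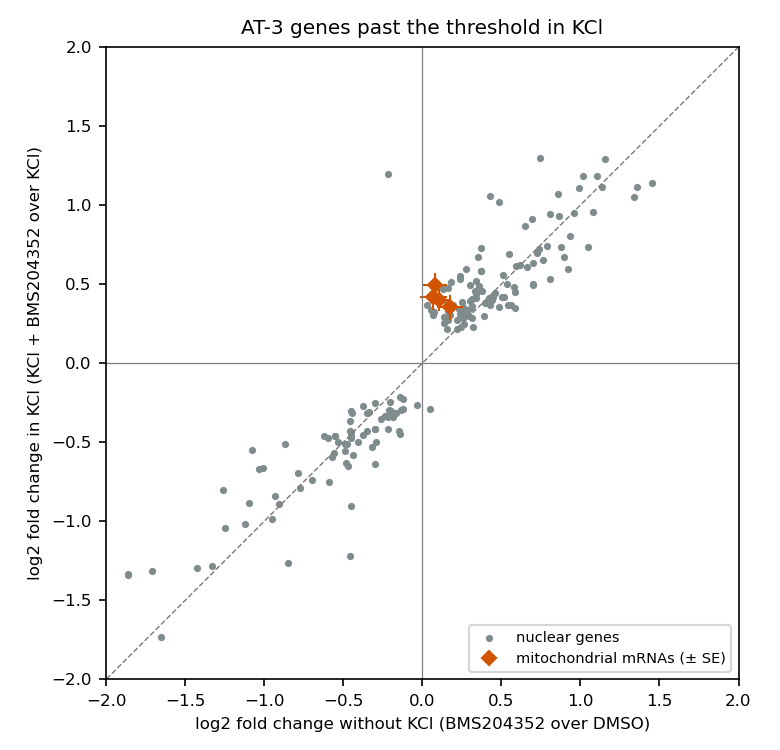
Log2 fold change of BMS204352 in KCl (y axis) against that without KCl (x axis) for 180 of the 183 genes past the threshold in KCl, with 3 outside the axes; the dashed line marks equal effects. Most points follow the line within both quadrants of equal sign, and the 4 mitochondrial mRNAs (diamonds, ± SE) lie near 0 on the x axis, as mt-Co1 at 0.08.

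Leaving out the third libraries of both BMS204352 groups, 6 genes passed the test of this difference. The effect was lower in KCl for 5 and higher for 1. The 5 were Ptgs2, which encodes the prostaglandin synthase COX-2, the annexin genes Anxa8 and Anxa1, and the keratin genes Krt6a and Krt5, and the other was Hlf, a bZIP transcription factor gene. In these fits Krt5 had a log2 fold change of −0.20 ± 0.07 in KCl and 0.38 ± 0.07 without it (adjusted p of the difference 0.01), and Anxa8 had −0.01 ± 0.06 in KCl and 0.66 ± 0.06 without it (adjusted p of the difference 0.00203). Ptgs2 had log2 fold changes of 0.59 ± 0.06 in KCl and 1.11 ± 0.06 without it. With all 18 libraries the unadjusted p-values of the 6 lay between 0.0514 and 0.169.

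E0771, a mouse line from a mammary adenocarcinoma, received the same treatments, and a fit to all 36 libraries tested the difference between the lines. In E0771, 1563 of 15969 genes passed for KCl+BMS204352 against KCl (9.79%), 799 higher (5%) and 764 lower (4.78%). Of the 183 AT-3 genes, 131 had at least 1 CPM in E0771; 31 of them were called in the same direction there, 23.7%, and 4 in the opposite one. The sign was the same for 95 of the 131, 72.5%, against 57.3% of 10668 genes at that level. The effects differed between the lines for 539 genes (3.38%), 312 with a higher and 227 with a lower value in AT-3. The difference passed for 333 genes without the third E0771 KCl+BMS204352 library, 279 without the first E0771 KCl library and 311 without the second.

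Pck2 and mt-Co1 passed in both lines. Pck2 had a log2 fold change of 0.61 ± 0.10 in AT-3 and 0.86 ± 0.10 in E0771 (adjusted p = 2.05e-06 there), and the synthesis list had 5 of 17 members called in AT-3 and 8 in E0771, all higher. Of all tested genes 0.731% were higher in AT-3 and 5% in E0771. mt-Co1 had 0.50 ± 0.08 in AT-3 and 0.78 ± 0.14 in E0771 (adjusted p = 0.000606 there), with 5 of 13 mitochondrial mRNAs called higher in E0771. The difference between the lines did not pass for either gene (adjusted p = 0.419 for Pck2 and 0.501 for mt-Co1). For the immediate early list the median was 0.63 in AT-3 and −0.07 in E0771, with 4 and 0 members called higher and 0 and 2 called lower. Ier2 had 0.63 ± 0.09 in AT-3 and −0.08 ± 0.07 in E0771, a difference of 0.71 ± 0.10 (adjusted p = 6.48e-05). The other members called in AT-3, Egr1, Egr2 and Egr4, averaged only 0.395, 0.0288 and 0.00997 CPM in E0771. At those levels a response in E0771 cannot be read, so the list values do not compare the lines for the EGR genes. The difference of Egr1 between the lines did not pass (adjusted p = 0.0657).

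Kcnn4 and contractile genes also differed between the lines. Kcnn4, present in E0771 at a mean of 118 CPM, had 1.05 ± 0.22 in AT-3 and −0.07 ± 0.17 in E0771, a difference of 1.12 ± 0.24 (adjusted p = 0.00763). Myl9 had −0.69 ± 0.18 in AT-3 and −1.82 ± 0.22 in E0771 (difference 1.13 ± 0.28, adjusted p = 0.0209), and Acta2 −0.20 ± 0.12 and −0.89 ± 0.13 (difference 0.69 ± 0.18, adjusted p = 0.0332). For Ccn2 the log2 fold change was −0.40 ± 0.27 in AT-3 and −2.14 ± 0.34 in E0771 (difference 1.75 ± 0.41, adjusted p = 0.0175), so the log2 fold changes of these 3 were lower in E0771. Of the MRTF-SRF list 2 of 38 members fell in AT-3 and 10 of 37 in E0771. The share of all tested genes that fell was 0.508% in AT-3 and 4.78% in E0771. The list medians were −0.16 in AT-3 and −0.14 in E0771, so the list as a whole was not lower in E0771. Tpm1 was lower in both, with log2 fold changes of −0.46 ± 0.08 in AT-3 and −0.49 ± 0.08 in E0771.

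The smallest p-values of the line difference belonged to Atp1b3, Pip5k1c, Cryab and Tfdp2. Atp1b3, a beta subunit of the sodium pump, had a log2 fold change of 0.03 ± 0.05 in AT-3, with 172, 174 and 170.01 CPM with BMS204352 in KCl and 173, 164 and 167 CPM in KCl alone; in E0771, by library total without TMM scaling, it had 137, 134 and 136 CPM with BMS204352 in KCl and 187, 195 and 189 CPM in KCl alone, a log2 fold change of −0.49 ± 0.04. Pip5k1c, a phosphoinositide kinase gene, had 0.05 ± 0.05 in AT-3 and −0.47 ± 0.05 in E0771, and Tfdp2, which encodes a partner of E2F factors, had 0.05 ± 0.06 and −0.64 ± 0.07. These 3 therefore did not pass in AT-3 and fell in E0771. Cryab fell in both lines, with log2 fold changes of −0.33 ± 0.08 in AT-3 and −1.11 ± 0.08 in E0771, a difference of 0.78 ± 0.10 (adjusted p = 4.04e-05).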

How the data were processed

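The authors deposited 1 table of raw counts per gene, in whole numbers, for 36 libraries. Per the submitters' processing notes it was made with STAR, featureCounts and the mouse build GRCm38; their versions, and the strand used in counting, are not stated. Column names gave the sample for all 36 columns. Of 32287 IDs, 2 of human form (6 counts) were left out, and 50 IDs without a symbol held 0.000914% of counts. Among counts from 1 to 10, 84.5% were even, so halved counts were also tried.

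Genes passing filterByExpr (minimum count 10, total 15) were normalized by TMM. The 18 AT-3 libraries were fitted with edgeR 4.0.16 in R 4.3.3, by quasi-likelihood with robust dispersions (common dispersion 0.0136). CPM are TMM-normalized unless said otherwise, and errors of log2 fold changes are SE. P-values were adjusted by Benjamini-Hochberg over all tested genes, with a threshold of 0.05. A fit to all 36 libraries tested the difference between lines. DESeq2 1.42.0, other filters, other size factors, the replicate number as a block and omission of each library of the groups in a test were alternatives. The NS11021 and KCl+NS11021 libraries were not left out one at a time. The code was tested on simulated data.

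The comparison, the 43 lists (1096 of 1099 members matched by symbol), the mitochondrial share and the naming rule were chosen with earlier results of these data known. The rule took the 12 largest rises and the 12 largest falls past the threshold whose mean log2 CPM was 2 or more and whose groups did not overlap. It also took up to 4 members, by smallest p, of each list with a call, the index genes, and the 4 smallest p of each test of differences. Not all of them are described. Genes were placed with GENCODE vM21, and promoters come from RefSeq, both on GRCm38.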

Additional observations from a re-analysis of the deposited data

Results flagged for a closer look

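For 25 of the 126 tested genes named by the rule, the effect of BMS204352 in KCl differed between AT-3 and E0771. The test was edgeR's, of the difference across all 36 libraries, with adjusted p below 0.05. It passed for 3.38% of all tested genes. Atp1b3, Pip5k1c, Cryab and Tfdp2 were named for their p in this same test. Many others were named for their effect in AT-3, which is part of the difference. The count of 25 is therefore no evidence that the lines differ. Each value is the AT-3 log2 fold change minus that of E0771. Of genes that rose in AT-3, Kcnn4 gave a difference of 1.12, Wfdc2 of 0.84, Ier2 of 0.71 and Col18a1 of 0.71. The difference was 0.43 for Etv4, 0.35 for Xbp1 and 0.27 for Cox4i1, which also rose. Of genes that fell in AT-3, Serpinb9 gave −1.15, Cyp26b1 −0.79, Tgm2 −0.77 and Dtx4 −0.40. Cryab gave 0.78, with a fall in AT-3 and a larger one in E0771. The others did not pass the test in AT-3 itself. Among them Ccn2 gave 1.75, Myl9 1.13, Tfdp2 0.70, Acta2 0.69, Slc3a2 0.55, Atp1b3 0.53 and Pip5k1c 0.52. Smaller differences were 0.47 for Ephx1, 0.38 for Syvn1, 0.31 for Ctsb, 0.26 for Cox8a, −0.31 for Hspd1 and −0.47 for Pdgfra.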

How the results depend on the processing

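The count of 183 genes was 178 to 197 with DESeq2 size factors (178), no filter (182), only the 6 libraries compared (190), halved counts (191) or a filter of 1 CPM (197). It was 510 with DESeq2's Wald test, which kept 181 of the 183. Leaving out 1 library gave 20 to 948 genes: 20 to 214 for the 6 libraries compared and 132 to 948 for the BMS204352 and DMSO libraries, which enter the spread only, an alternative added after seeing the data. Without the third KCl+BMS204352 library the count was 21 with the other 17 AT-3 libraries in the fit and 167 with only the other 5 compared, also added, and 43 of the 63 named calls held in the second. In place of 25 lists with a call, 7 held one without the third KCl+BMS204352 library. Of 63 named genes past the threshold, 8 kept their call in all 6 omissions, 52 without the third libraries of both BMS204352 groups and 63 in DESeq2; no named gene changed sign where it passed the threshold with all libraries or under the alternative. Kcnq5, not past it, had 0.23 and, without the third KCl+BMS204352 library, −0.07. The difference with and without KCl gave 0 genes under every alternative except without the third libraries of both BMS204352 groups, where it gave 6. The difference between lines, 539 genes, was 958 in DESeq2 and 279 to 531 with 1 library left out. The mitochondrial difference was 0.144 to 0.196 percentage points with 1 library left out. It was the same over the 13 mRNAs, since the table holds no other mitochondrial gene.

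Nothing in the labels says that a replicate number marks a shared culture or day. Deviations of same-numbered KCl+BMS204352 and KCl libraries correlated at 0.0665, 0.109 and 0.0849 over all tested genes, against −0.115 to 0.0118 for different numbers, so each library correlated best with its own number, and 1 of the 3 pairs passed 0.1. Over the 10293 genes averaging at least 5 CPM, a choice made after seeing the data, all 3 did, at 0.164, 0.172 and 0.123 against −0.212 to 0.0474. By the check over all tested genes the numbers were not taken as pairs, though the data hint at it. A replicate block gave 620 genes (4.2% of those tested), of which 182 were among the 183, 561 with only the 6 libraries compared, 0 for the difference with and without KCl and 939 for the difference between lines. By list, the block gave 13 lower and 1 higher in cholesterol synthesis, 11 lower MRTF-SRF targets against 2, 7 lower YAP-TEAD genes against 2, 9 lower ribosome biogenesis genes against 0, 3 lower G2/M genes, 2 lower G1/S genes, 2 lower fatty acid synthesis genes and 7 higher immediate early factors against 4.

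Depth was 38.5 to 52.6 M counts per AT-3 library, which limits statements on genes such as Kcnma1 below 1 CPM. The cause of the gap between fits was not tested.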

Other observations

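Genes past the threshold that stood on no list were looked at after their values were seen, so no group made of them was tested. Some of them encode transporters. Slc29a1, a nucleoside transporter, had 237, 249.8 and 242 CPM in the KCl+BMS204352 libraries, against 194, 186 and 189.7 CPM in the KCl libraries (log2 fold change 0.36 ± 0.05, adjusted p = 0.00127), and its call held in every omission. Slc27a1, a fatty acid transporter, had a log2 fold change of 0.58 ± 0.14, Slc39a3, a zinc transporter, 0.37 ± 0.09, Slc36a1, a proton-coupled amino acid transporter, 0.35 ± 0.08, Slc6a8, the creatine transporter, 0.31 ± 0.07, and Slc25a39, a mitochondrial carrier, 0.22 ± 0.05. The 5 calls other than Slc29a1 were lost without the third KCl+BMS204352 library (adjusted p between 0.193 and 0.274).

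Plce1 and Plcb1, phospholipases C, had log2 fold changes of −1.28 ± 0.29 and −0.29 ± 0.07, Adcy5, an adenylyl cyclase, −0.55 ± 0.12, and Akap6, an anchor of protein kinase A, −1.29 ± 0.22. Akap6 had 1.83, 1.89 and 1.32 CPM in the KCl+BMS204352 libraries, against 4.02, 4.31 and 4.02 CPM in the KCl libraries, with no overlap, and held in 5 of the 6 omissions. All 4 calls were lost without the third KCl+BMS204352 library, with adjusted p-values of 0.191 for Plce1, 0.135 for Plcb1, 0.141 for Adcy5 and 0.0565 for Akap6. Tns3, which encodes the adhesion protein tensin 3, had 123, 119 and 117 CPM in the KCl+BMS204352 libraries, against 163, 173 and 175 CPM in the KCl libraries (log2 fold change −0.51 ± 0.08, adjusted p = 0.00466). Svil, which encodes the actin-binding protein supervillin, had 68.3, 64.7 and 64.7 CPM with BMS204352 in KCl and 85.6, 96 and 85.2 CPM in KCl alone (log2 fold change −0.43 ± 0.07, adjusted p = 0.00676). Both calls held in every omission.

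Ebf2, a transcription factor gene, had 15, 14 and 10 counts with BMS204352 in KCl and 0 counts in all 3 KCl libraries, at least 12.5-fold higher when the KCl group is set at a floor of 3 counts over the group. Its call was lost in each of the 6 omissions.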
